A study of Mus musculus with 13 samples.

Results

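The 4 TCF/LEF transcription factors of the mouse (Lef1, Tcf7, Tcf7l1 and Tcf7l2) and 6 genes known as targets or feedback regulators of Wnt signalling (Axin2, Sp5, Apcdd1, Nkd1, Lgr5 and Cdx1) were followed in mouse ES cells after stabilisation of G-quadruplexes (G4) with PhenDC3. These 10 genes were picked by symbol from the 24079 genes of an RNA-seq count table. Lef1 and Apcdd1 were picked because their counts differed strongly between treated and control cells, so the comparison of both conditions is given as a description for all 10. Calls of members come from the fit over all genes, are given only to place them beside the share of all genes called, and are no evidence of a difference. The cells were CGR8, a feeder-free mouse ES cell line grown on gelatin with serum and LIF. Control cells received 0.5% DMSO and PhenDC3 cells received 10 μM PhenDC3 in 0.5% DMSO, both for 48 h. RNA-seq comprised 3 control and 3 PhenDC3 samples. Replication origins were mapped in the same conditions by sequencing of short nascent strands (SNS-seq), with 3 control and 2 PhenDC3 peak lists. All samples come from this single line, and the labels do not say whether replicates are independent cultures, so the spread between them may be partly technical. In bulk RNA, fewer cells of a type and less RNA per cell cannot be told apart.

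In canonical Wnt signalling, a Wnt ligand binding to Frizzled and LRP receptors halts the destruction complex (APC, Axin, GSK3 and casein kinase), and β-catenin then accumulates and binds TCF/LEF factors on DNA. Lef1 and Tcf7 act mostly as activators with β-catenin, whereas Tcf7l1 acts mostly as a repressor. In ES cells Tcf7l1 is known to restrain pluripotency genes such as Nanog. Axin2, Nkd1 and Apcdd1 are antagonists of the pathway that are themselves activated by it, which makes them feedback regulators. G4 are structures of stacked guanines formed by G-rich DNA, and PhenDC3 is a small molecule that binds and stabilises them.

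Because the treatment acts on G4, the DNA just upstream of the transcription start site (TSS) is shown for 4 members. Each sequence is the 250 bases before a RefSeq TSS of GRCm38.p6 (mm10), 5′ to 3′ on the strand of the gene, and none overlaps an annotated exon. In the sequences of Lef1, Tcf7l1 and Axin2 the capitals mark G4 predicted by Quadparser, which looks for 4 runs of at least 3 G with loops of 1 to 7 bases on either strand. Loops may themselves hold G, so a single long run of G can count as several runs. In the sequence of Sp5 the capitals mark the core letters of a TCF/LEF motif. The windows are chr3:131110047-131110296 (plus strand, Lef1), chr6:72789046-72789295 (minus strand, Tcf7l1), chr11:108920099-108920348 (plus strand, Axin2) and chr2:70474673-70474922 (plus strand, Sp5).
Lef1: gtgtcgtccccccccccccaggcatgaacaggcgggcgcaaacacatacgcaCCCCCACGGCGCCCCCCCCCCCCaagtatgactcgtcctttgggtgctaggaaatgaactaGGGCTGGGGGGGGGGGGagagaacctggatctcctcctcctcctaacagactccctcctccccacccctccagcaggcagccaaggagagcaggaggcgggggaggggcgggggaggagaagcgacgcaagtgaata
Tcf7l1: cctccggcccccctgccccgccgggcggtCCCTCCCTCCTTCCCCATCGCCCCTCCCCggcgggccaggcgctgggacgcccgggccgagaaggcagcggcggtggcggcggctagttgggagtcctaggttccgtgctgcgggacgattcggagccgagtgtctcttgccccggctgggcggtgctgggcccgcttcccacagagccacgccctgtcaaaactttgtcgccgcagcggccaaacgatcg
Axin2: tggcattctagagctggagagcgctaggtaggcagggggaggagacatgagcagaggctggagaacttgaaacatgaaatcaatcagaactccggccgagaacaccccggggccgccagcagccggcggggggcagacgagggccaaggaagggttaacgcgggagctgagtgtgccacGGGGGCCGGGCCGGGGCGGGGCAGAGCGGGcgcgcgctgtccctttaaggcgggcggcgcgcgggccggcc
Sp5: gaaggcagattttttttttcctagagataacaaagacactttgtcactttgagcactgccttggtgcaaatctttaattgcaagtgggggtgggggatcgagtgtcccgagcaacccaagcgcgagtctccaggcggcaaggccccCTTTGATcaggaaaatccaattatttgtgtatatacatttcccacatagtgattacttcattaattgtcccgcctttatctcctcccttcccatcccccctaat

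The Lef1 window holds 2 predicted G4, one of 17 bases on the strand of the gene (137 to 121 bases upstream of the TSS) and one of 23 bases on the opposite strand (198 to 176 bases upstream). Neither of these has 4 runs parted by other bases, and both are found only because a long run is split by loops of G. All windows were searched by this rule. The Tcf7l1 window holds one of 29 bases on the opposite strand, 221 to 193 bases upstream, and the Axin2 window one of 30 bases on the strand of the gene, 71 to 42 bases upstream. RefSeq promoter windows were available for 7 of the 10 members, 12 windows in all, and windows of Tcf7 and Tcf7l2 also hold a predicted G4. Among 32851 promoter windows of the same length, 16.7% hold a Quadparser G4. The TCF/LEF core was searched as CTTTGAA or CTTTGAT on both strands. CTTTGAT occurs once among the members, in the Sp5 window 104 to 98 bases upstream of the TSS, and CTTTGAA occurs in none of the 12 windows. Over all promoter windows, 4.46% hold CTTTGAA, 3.21% hold CTTTGAT and 7.48% hold either. These matches describe the letters in a window and do not show a bound site.

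G4 predictions were also counted around each gene. A predicted G4 lay within 500 bp of a TSS in 9 of the 10 members, all but Sp5, and in 59.3% of 13955 expressed genes. Over the whole gene, Axin2 held 33 predicted G4, or 10.0 per 10 kb, at percentile 97.6 of expressed genes. Sp5, which spans 2.80 kb, held 2, or 7.13 per 10 kb (percentile 93.9). The other 8 members held between 1.60 (Tcf7l1) and 2.97 (Tcf7l2) per 10 kb, on either side of the median of 1.91, and Lef1 held 31, or 2.72 per 10 kb. Lef1 and Apcdd1 (2.22 per 10 kb) were at percentiles 67.2 and 57.9.

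The RNA-seq samples had between 22232014 and 29486502 counts. Values are given as CPM, the counts of a gene scaled to a fixed library total, with each library adjusted by relative log expression. Of 13972 genes that passed the filter on low counts, 36.8% were called at an adjusted p of at most 0.05 with edgeR (2518 or 18% higher and 2617 or 18.7% lower with PhenDC3), and the groups did not overlap in 50.6%. Many genes thus differed between the conditions, and the members have to be read against that. The ribosomal RNA precursor Rn45s took between 2.55% and 5.70% of the counts in control samples, and no gene took more than 1.43% in PhenDC3 samples. This was not tested as a factor in the results below.

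Of the 10 members, 7 passed the filter. Tcf7l1, Tcf7l2 and Apcdd1 were called higher with PhenDC3, Lef1 and Axin2 were called lower, and Tcf7 and Nkd1 were not called. Sp5, Lgr5 and Cdx1 were below the filter. The groups did not overlap in 7 of the 10, and in 6 of the 7 that passed the filter, beside 50.6% of all genes that passed it. Since members were picked partly on this contrast, nothing is read from these counts beside the 36.8% of all genes called or the 50.6% without overlap.

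Lef1 (Entrez 16842, chr3:131110297-131224357, plus strand) had the largest difference of the set. It stood at 21.1, 21.3 and 33.5 CPM in control samples 1, 2 and 3 and at 0.555, 0.335 and 0.327 CPM in PhenDC3 samples 1, 2 and 3. In counts these were 582, 466 and 775 against 16, 8 and 9. Every PhenDC3 sample lay far below every control sample, and control 3 was the highest. The mean went from 25.3 ± 7.1 to 0.405 ± 0.130 CPM (SD, n = 3 each), a log2 fold change of -5.93 ± 0.30 (SE), or 61.0-fold lower. By absolute log2 fold change Lef1 was at rank 4 of the 13972 genes.

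Tcf7 (Entrez 21414, chr11:52246527-52283383, minus strand), the other factor known mostly as an activator, was close in both conditions. It stood at 54.0, 54.5 and 66.7 CPM in control and at 54.0, 46.0 and 51.6 CPM in PhenDC3 samples. The groups overlapped, since PhenDC3 1 had the same level as control 1. The log2 fold change was -0.21 ± 0.12 and was not called.

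Tcf7l1 (Entrez 21415, chr6:72626371-72789045, minus strand), the factor known mostly as a repressor, rose. It stood at 58.8, 73.6 and 83.9 CPM in control and at 140, 124 and 133 CPM in PhenDC3 samples, with no overlap. The log2 fold change was 0.88 ± 0.14, or 1.84-fold higher.

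Tcf7l2 (Entrez 21416, chr19:55741797-55933659, plus strand), which can activate or repress depending on its partners and isoform, rose by a similar factor from a lower level. It stood at 5.76, 6.88 and 6.31 CPM in control and at 11.9, 12.0 and 11.0 CPM in PhenDC3 samples. The spread within each group was small next to the gap between them, and the log2 fold change was 0.89 ± 0.15.

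**Figure D1:**
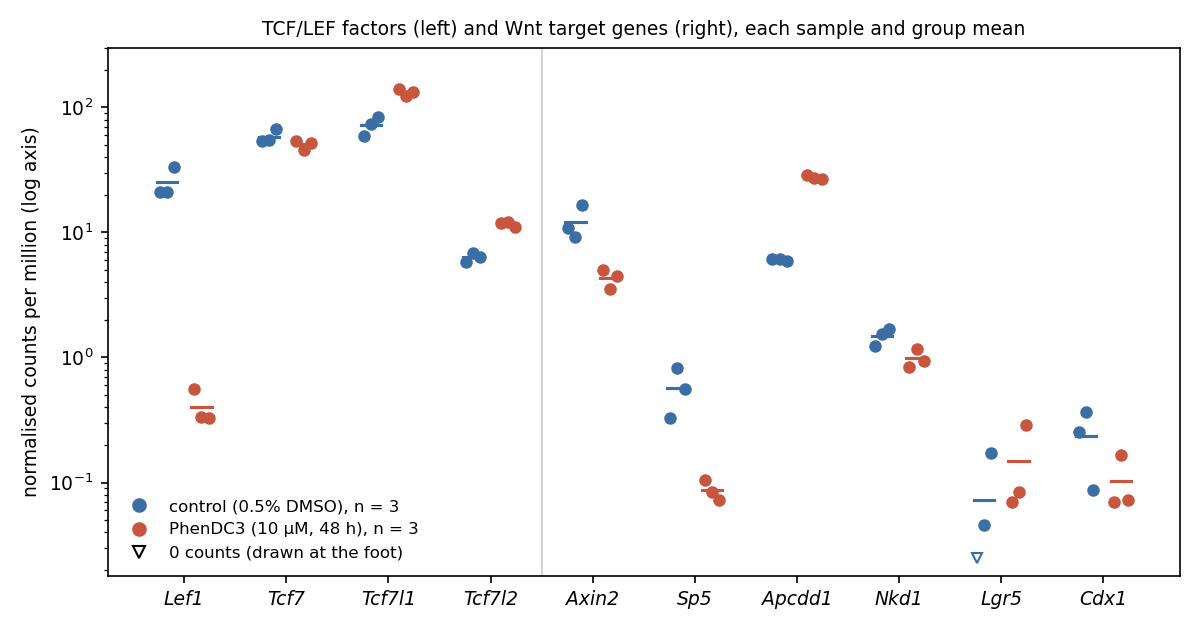
Level of each member in each RNA-seq sample (points) and the mean of each condition (bars), in normalised CPM on a log axis, for 3 control (blue) and 3 PhenDC3 (red) samples; the open triangle is the sample without a count of Lgr5. Lef1 fell from a mean of 25.3 to 0.405 CPM, Apcdd1 rose from 6.05 to 27.5 CPM, and the groups overlap for Tcf7, Lgr5 and Cdx1.

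Levels of different genes were compared per kb of exon, as the union of RefSeq exons. In control samples the order among the TCF/LEF factors was Tcf7l1 at 25.01 ± 4.38, Tcf7 at 21.3 ± 2.6, Lef1 at 6.37 ± 1.80 and Tcf7l2 at 1.37 ± 0.12 CPM per kb (SD, n = 3). The levels of Tcf7l1 and Tcf7 lay within their spread of each other, while the steps to Lef1 and to Tcf7l2 were larger than the spread. In PhenDC3 samples Tcf7l1 reached 46.0 ± 2.8 and Tcf7 18.5 ± 1.5, followed by Tcf7l2 at 2.52 ± 0.12 and Lef1 at 0.102 ± 0.033 CPM per kb. Lef1 thus moved from the third to the last place.

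As a share of the summed level of the 4 factors, Lef1 made up 11.4%, 10.2% and 13.3% in control 1, 2 and 3 and 0.197%, 0.135% and 0.122% in PhenDC3 1, 2 and 3. Tcf7l1 made up 43.7%, 48.8% and 46.0% in control and 68.4%, 68.9% and 68.4% in PhenDC3 samples. The share of Tcf7 went from 39.6% ± 2.3 to 27.5% ± 0.6, and that of Tcf7l2 from 2.56% ± 0.36 to 3.77% ± 0.34 (SD, n = 3). By exon length Tcf7l1 was the most abundant of the 4 in every sample, and it made up more than all others together in every PhenDC3 sample. The summed level itself was 54.1 ± 8.4 CPM per kb in control and 67.1 ± 4.3 CPM per kb in PhenDC3 samples, with control 3 (63.3) above PhenDC3 2 (62.6). With coding length in place of exon length, the share of Lef1 in control was 19.5% and that of Tcf7l1 39.9%, and the shares in PhenDC3 samples were 0.281% and 65.6%. By that length Tcf7 (39.8%) was above Tcf7l1 (37.7%) in control 1, so the order of both in control depends on the length used.

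**Figure D2:**
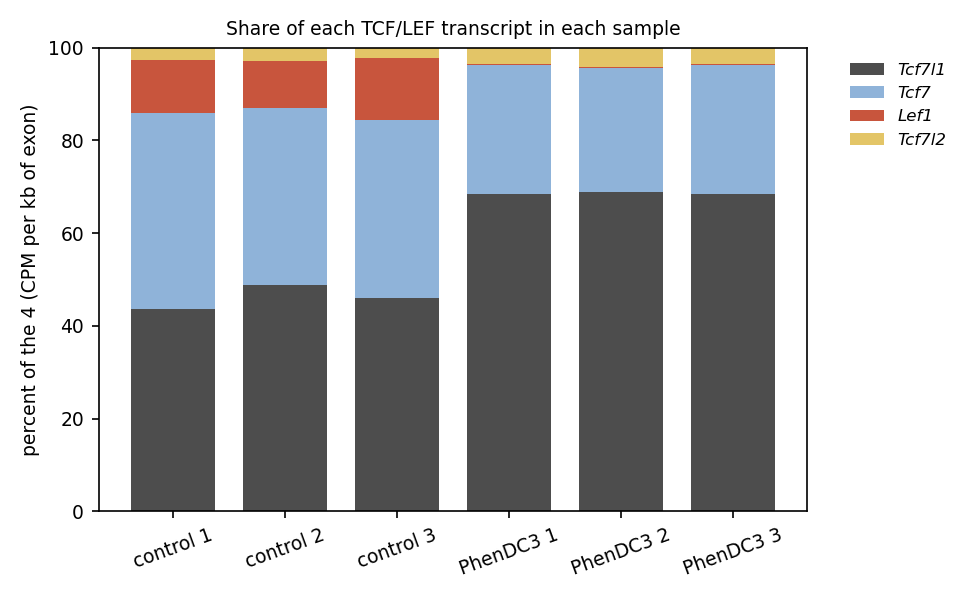
Share of each TCF/LEF transcript in the summed level of the 4, in percent of CPM per kb of exon, for each of the 6 RNA-seq samples (stacked bars). The share of Lef1 is 11.7% on average in control and 0.151% in PhenDC3 samples, and that of Tcf7l1 is 46.2% and 68.6%.

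Among the feedback genes, Axin2 (Entrez 12006, chr11:108917828-108950783, plus strand) fell. It encodes a scaffold of the destruction complex and is widely used as a readout of canonical Wnt signalling. It stood at 10.9, 9.12 and 16.4 CPM in control and at 5.00, 3.56 and 4.47 CPM in PhenDC3 samples. The groups did not overlap, and control 3 was the highest, as it was for Lef1. The log2 fold change was -1.48 ± 0.24, or 2.79-fold lower.

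Apcdd1 (Entrez 494504, chr18:62922327-62953815, plus strand) rose. It encodes a membrane protein that inhibits Wnt signalling at the level of ligand and receptor. It stood at 6.12, 6.16 and 5.88 CPM in control and at 28.6, 27.5 and 26.5 CPM in PhenDC3 samples. Samples of a condition were nearly level, and the log2 fold change was 2.19 ± 0.12, or 4.55-fold higher, at rank 360 of the 13972 genes. Axin2 and Apcdd1, both inhibitory feedback genes, thus moved in opposite directions.

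Nkd1 (Entrez 93960, chr8:88521342-88594887, plus strand), an antagonist that binds Dishevelled, was weakly expressed. It stood at 1.23, 1.55 and 1.69 CPM in control and at 0.833, 1.17 and 0.944 CPM in PhenDC3 samples. The groups did not overlap, but the highest PhenDC3 sample came close to the lowest control sample, and the log2 fold change of -0.60 ± 0.28 was not called.

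Sp5 (Entrez 64406, chr2:70474923-70477726, plus strand), a zinc finger factor activated by β-catenin in many tissues, had 9, 18 and 13 counts in control and 3, 2 and 2 counts in PhenDC3 samples. All 3 PhenDC3 samples were below all control samples, but the gene did not pass the filter and was not tested. Lgr5 (Entrez 14160, chr10:115450314-115587780, minus strand), a receptor of R-spondins that marks Wnt-dependent stem cells of the gut, had 0, 1 and 4 counts in control and 2, 2 and 8 in PhenDC3 samples. Cdx1 (Entrez 12590, chr18:61018862-61036199, minus strand), a homeobox factor of posterior patterning, had 7, 8 and 2 counts in control and 2, 4 and 2 in PhenDC3 samples. For Lgr5 and Cdx1 the groups overlapped, and a difference was not detectable at this depth.

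Per kb of exon, the targets ranked in control as Axin2 (2.85 ± 0.90), Apcdd1 (1.77 ± 0.04), Nkd1 (0.334 ± 0.052), Sp5 (0.272 ± 0.118), Cdx1 (0.134 ± 0.080) and Lgr5 (0.0155 ± 0.0190 CPM per kb). Nkd1 and Sp5 lay within their spread of each other, as did Sp5 and Cdx1. In PhenDC3 samples Apcdd1 came first with 8.06 ± 0.30 CPM per kb, above Axin2 at 1.02 ± 0.17.

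The genes with the profiles most like that of Lef1 were Gbx2, Vrtn and Slc7a7, by distance between centred log2 CPM over the 6 samples among 12480 genes (distances of 1.17, 2.09 and 2.34, Pearson's r of 0.988, 0.966 and 0.979). Gbx2, a homeobox factor, went from 29.2 ± 4.3 to 0.667 ± 0.290 CPM. Those most like Apcdd1 were Sox21, Trp53inp1 and Slc1a1 (distances of 0.270, 0.284 and 0.326). Sox21, a Sox family repressor, went from 7.25 ± 0.97 to 33.0 ± 2.3 CPM. These likenesses rest mainly on the gap between both conditions and are a description.

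The rest of the pathway was examined with 122 genes in 8 lists, all fitted and adjusted with the whole table. Of these, 98 passed the filter, 25 were called higher and 18 lower with PhenDC3. That is 43.9% of the genes tested, beside 36.8% over all genes. The genes named are the up to 4 called genes with the largest change and a mean of at least 1 CPM in each list. Other called genes (Wnt5b, Rspo2, Fzd6, Frzb, Csnk1e, Btrc, Dact2, Pygo1, Ctnnbip1, Cdx4 and Ephb3) are added so that short counts can be followed, and were chosen after their values were seen. Wnt3a, Rspo2, Frzb, Pygo1 and Cdx4 were near the floor in control, with means of 0.024 (Rspo2) to 0.389 CPM (Pygo1). They passed the filter through the PhenDC3 samples, and Wnt5b through the control samples. Their calls, and list counts and medians that include them, are a description.

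Of the 19 Wnt ligands, 8 passed the filter, 4 rose, 1 fell and the median log2 fold change was 0.92, beside 0.01 over all genes tested. Wnt3a, a ligand of the canonical pathway, went from 0.295 ± 0.184 to 2.64 ± 0.38 CPM (log2 fold change 3.12 ± 0.42, adjusted p = 0.000772). Wnt7b was the most abundant in CPM and went from 6.14 ± 1.59 to 14.3 ± 1.4 CPM (1.22 ± 0.20, adjusted p = 0.00206). Wnt9a (1.21 ± 0.25, adjusted p = 0.00554) and Wnt4 (1.07 ± 0.30, adjusted p = 0.0223) also rose. The call of Wnt4 was lost without control 1 (adjusted p = 0.0773) or PhenDC3 3 (0.0819). The ligand that fell was Wnt5b, from 1.14 ± 0.27 to 0.238 ± 0.060 CPM (adjusted p = 0.00255). In the same samples Lef1 and Axin2 fell, while Apcdd1, Tcf7l1 and Tcf7l2 rose.

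Ligands need to be lipid-modified and exported, and R-spondins raise the number of Frizzled receptors. Of 6 genes in this list, 4 passed the filter, 2 rose and 1 fell. Porcn, the acyltransferase of Wnt ligands, fell from 13.9 ± 3.3 to 6.55 ± 0.38 CPM (-1.08 ± 0.19, adjusted p = 0.00273), and their carrier Wls rose from 2.19 ± 0.48 to 4.85 ± 0.69 CPM (1.15 ± 0.23, adjusted p = 0.00500). The R-spondin gene Rspo2 rose from 2 counts over the control samples to 69 over the PhenDC3 samples (adjusted p = 0.00153).

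Of the 17 receptor genes, 16 passed the filter, 6 fell and 2 rose, with a median log2 fold change of -0.47. With 1 sample left out, 4 to 5 were called lower and 1 to 3 higher, so the count of 6 that fell was not kept in any such fit. Fzd7, a Frizzled receptor prominent in pluripotent cells, fell from 163 ± 24 to 39.2 ± 10.9 CPM (-2.06 ± 0.20, adjusted p = 0.000170). Fzd2 (-0.99 ± 0.23, adjusted p = 0.00912) and the R-spondin receptor Lgr4 (-0.93 ± 0.19, adjusted p = 0.00587) also fell, the latter from 121 ± 18 to 63.2 ± 16.0 CPM. Fzd10 rose (0.91 ± 0.19, adjusted p = 0.00546), as did Fzd6 (0.76 ± 0.20, adjusted p = 0.0155). The call of Fzd6 was lost without control 1 (adjusted p = 0.0561) or PhenDC3 3 (0.0674). Fzd5, the most abundant receptor in CPM, stood at 195 ± 21 and 207 ± 25 CPM and was not called (0.09 ± 0.13, adjusted p = 0.617).

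Of 20 secreted or membrane inhibitors, 13 passed the filter, 3 rose and 2 fell. Sfrp1, a secreted protein that binds Wnt ligands, rose from 67.2 ± 11.2 to 145 ± 39 CPM (1.11 ± 0.21, adjusted p = 0.00352). Frzb, of the same family, rose from 14 counts over the control samples to 64 over the PhenDC3 samples (adjusted p = 0.00692), and Kremen1, a co-receptor of Dickkopf, rose slightly (0.37 ± 0.11, adjusted p = 0.0259). Notum, an enzyme that strips the lipid from Wnt ligands and is itself a target of the pathway, fell from 25.1 ± 1.5 to 13.04 ± 0.95 CPM (-0.94 ± 0.12, adjusted p = 0.000668). Shisa2, which retains Frizzled receptors in the cell, fell (-0.93 ± 0.27, adjusted p = 0.0252). The call of Kremen1 was lost without control 1, control 2, PhenDC3 1 or PhenDC3 3 (adjusted p of 0.0598, 0.0707, 0.0939 and 0.0963), and that of Shisa2 without control 1 (0.0799) or PhenDC3 2 (0.0528).

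All 21 genes of the cytoplasmic list passed the filter, 5 rose and 2 fell. Ctnnb1, which encodes β-catenin, stood at 787 ± 52 CPM in control and 737 ± 26 CPM in PhenDC3 samples (-0.09 ± 0.10, adjusted p = 0.507). The destruction complex genes Axin1 (-0.12 ± 0.13, adjusted p = 0.500) and Apc (0.34 ± 0.15, adjusted p = 0.115) were not called either, though Apc was called without control 3 (adjusted p = 0.0152). The kinase gene Gsk3b rose from 48.3 ± 10.2 to 109 ± 13 CPM (1.18 ± 0.16, adjusted p = 0.000873), and the casein kinase gene Csnk1g1 from 36.9 ± 5.9 to 82.4 ± 3.2 CPM (1.16 ± 0.13, adjusted p = 0.000321). Btrc, which targets β-catenin for degradation, also rose (0.73 ± 0.13, adjusted p = 0.00243). Other genes of these families, named after their values were seen, were not called. They were Gsk3a (0.04 ± 0.10, adjusted p = 0.782), Csnk1a1 (-0.08 ± 0.11, adjusted p = 0.596), Csnk1d (0.16 ± 0.12, adjusted p = 0.316) and Fbxw11 (0.12 ± 0.16, adjusted p = 0.587). Axin1, Apc and the genes of these families thus did not rise as a set.

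Of the other genes called in the cytoplasmic list, Apc2, Csnk1e and Dact2 were less stable. Apc2 rose (1.13 ± 0.32, adjusted p = 0.0226) but missed the threshold without control 1, control 2, PhenDC3 1 or PhenDC3 3 (adjusted p of 0.0772, 0.0534, 0.0992 and 0.0798). Csnk1e rose by 0.31 ± 0.10 on the log2 scale (adjusted p = 0.0417) and missed it with TMM scaling (0.0512), without the filter (0.0645) and when any 1 sample other than control 3 was left out (0.0851 to 0.129). Nkd2, the paralog of Nkd1, fell (-0.96 ± 0.24, adjusted p = 0.0140) and lay between -1.03 and -0.91 with 1 sample left out. Dact2, a binding partner of Dishevelled, fell by 0.40 on the log2 scale (adjusted p = 0.0344), and missed the threshold without control 2 (0.0896), PhenDC3 1 (0.146) or PhenDC3 3 (0.0995).

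All 16 nuclear cofactors passed the filter, with 3 higher and 3 lower. Bcl9l, an adaptor that recruits coactivators to β-catenin, rose from 9.21 ± 2.15 to 27.8 ± 1.3 CPM (1.59 ± 0.17, adjusted p = 0.000246). Pygo1, a partner of the Bcl9 adaptors, rose from 0.389 ± 0.078 to 1.15 ± 0.35 CPM (adjusted p = 0.0108), and the kinase gene Nlk rose (0.53 ± 0.11, adjusted p = 0.00549). The corepressor gene Ctbp2, the most abundant of the list in CPM, fell from 374 ± 23 to 187 ± 32 CPM (-1.0 ± 0.14, adjusted p = 0.000952), and its paralog Ctbp1 fell (-0.61 ± 0.13, adjusted p = 0.00723). Ctnnbip1, an inhibitor of the contact between β-catenin and TCF, fell (-0.44 ± 0.12, adjusted p = 0.0195), a call lost without control 2 (0.0514), PhenDC3 1 (0.0655) or PhenDC3 3 (0.0755).

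Of 18 other genes known as Wnt targets in some tissue, 15 passed the filter, 4 rose and 3 fell, so this list moved in both directions, as the members did. The proto-oncogene Myc fell from 50.2 ± 4.8 to 10.3 ± 3.4 CPM (-2.27 ± 0.23, adjusted p = 0.000189), and the cyclin gene Ccnd1 from 121 ± 19 to 43.8 ± 12.7 CPM (-1.46 ± 0.21, adjusted p = 0.00107). Fst, an activin antagonist, rose from 2.50 ± 0.44 to 14.2 ± 3.5 CPM (2.50 ± 0.24, adjusted p = 0.000159), and the homeobox gene Msx2 from 0.807 ± 0.138 to 2.72 ± 0.79 CPM (1.74 ± 0.31, adjusted p = 0.00300). Ephb3 rose (0.55 ± 0.10, adjusted p = 0.00339). Cdx4 rose (1.26 ± 0.39, adjusted p = 0.0323), but missed the threshold with DESeq2 (0.103), without the filter (0.0539) and when any 1 sample other than control 2 was left out (0.0586 to 0.136).

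All 5 pluripotency genes listed as repressed by Tcf7l1 passed the filter, 2 rose and none fell, in the samples in which Tcf7l1 itself rose. Nanog rose from 477 ± 13 to 1112 ± 69 CPM (1.22 ± 0.10, adjusted p = 0.000101), and Tfcp2l1 from 272 ± 78 to 838 ± 169 CPM (1.62 ± 0.22, adjusted p = 0.000754). Over all genes tested 18% were called higher, and with 5 genes the count allows no statement on the list.

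**Figure D3:**
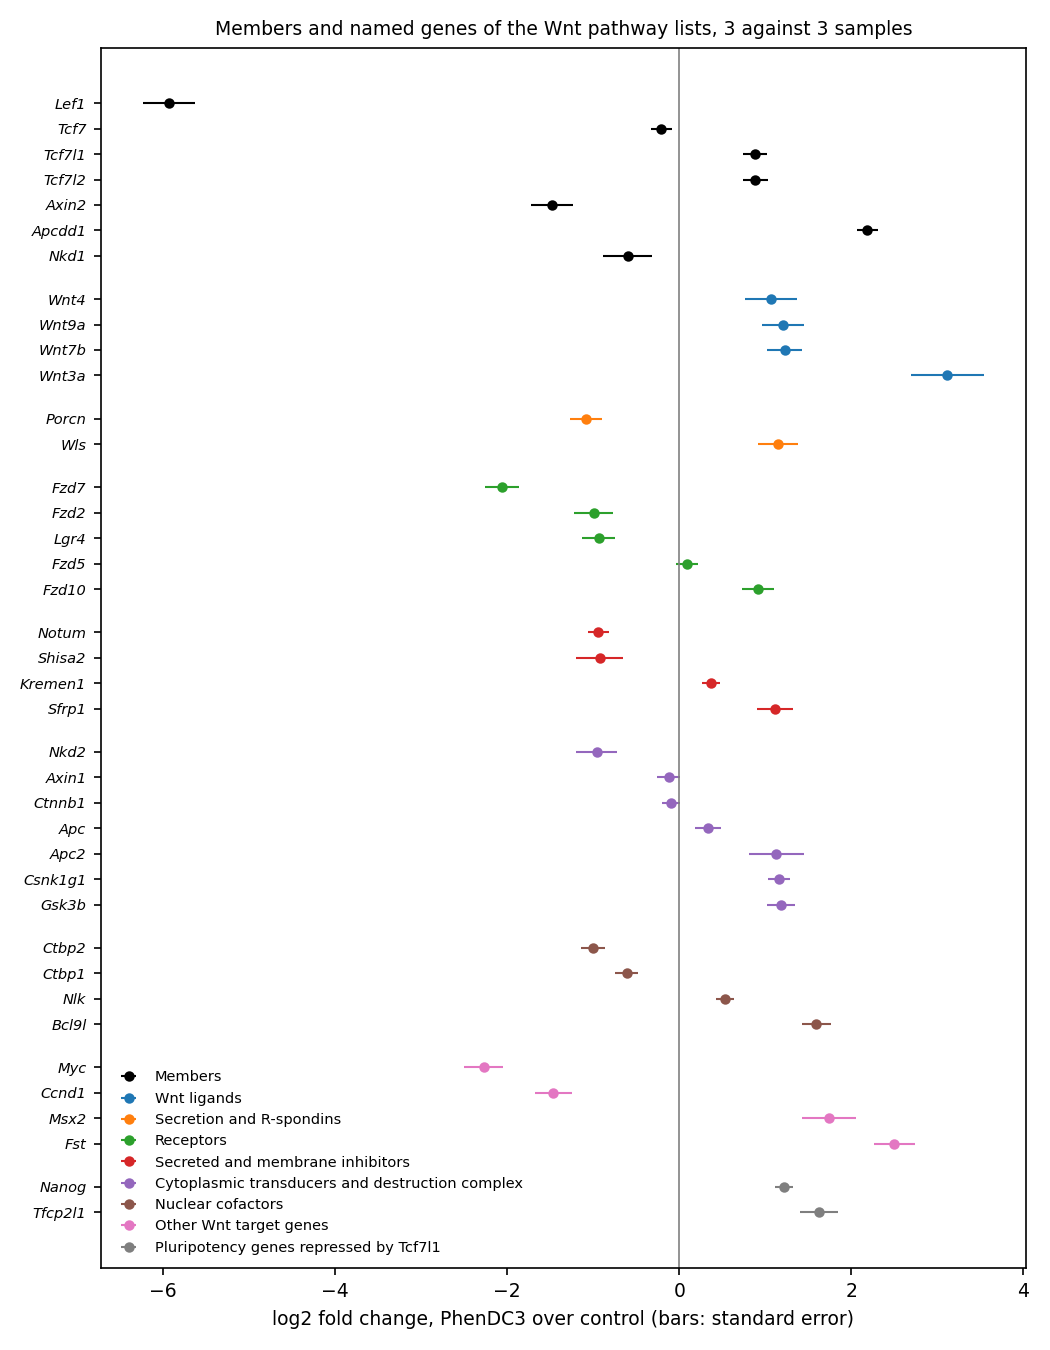
Log2 fold change of PhenDC3 over control (points) with its standard error (bars) from edgeR, for the 7 members tested and the genes named by rule in the 8 pathway lists, 3 against 3 samples. Lef1, which was picked for its strong change, lies at -5.93, and Ctnnb1 lies at -0.09. The pathway genes plotted range from -2.27 (Myc) to 3.12 (Wnt3a). Called genes with a mean below 1 CPM are not plotted and reach -2.67 (a receptor) and 4.73 (Rspo2).

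The identity of the cells was checked with marker lists, in which Fgf4, Dppa4, Tdgf1, Pou5f1, Fgf5, Otx2, Foxd3, Zic2, Sox17, Gata6, Cdx2, Hand1, Elf5, Sox1 and Gsc were named after their values were seen. The ES cell markers were abundant in all samples, with a summed level of 7648 to 8566 CPM in control and 8465 to 9853 CPM in PhenDC3 samples. Of these 10 genes, 3 rose (Nanog, Fgf4 and Dppa5a) and 4 fell (Utf1, Dppa4, Tdgf1 and Pou5f1), beside 18% and 18.7% of all genes. Utf1 had the largest change (-2.02 ± 0.21, adjusted p = 0.000234), and Dppa5a was the most abundant in CPM (0.56 ± 0.16, adjusted p = 0.0253). The call of Dppa5a was lost without control 2, control 3, PhenDC3 1 or PhenDC3 2 (0.0555 to 0.0717), and that of Pou5f1 without PhenDC3 1 (0.0543). Of 9 genes of the formative or primed epiblast, all of which passed the filter, 6 fell and none rose, beside 18.7% of all genes called lower. The other 3 were not called, namely Otx2 (-0.0036 ± 0.12, adjusted p = 0.984), Foxd3 (0.15 ± 0.15, adjusted p = 0.488) and Zic2 (-0.32 ± 0.15, adjusted p = 0.126). Among those that fell, Sox3 had 150 counts over the control samples and 17 over the PhenDC3 samples, and Fgf5 88 and 23. Both passed the filter through the control samples, so their calls and the count that includes them are a description. The summed level of the list went from 649 to 964 CPM in control to 277 to 339 CPM in PhenDC3 samples. Pou3f1 fell from 12.5 ± 4.4 to 0.826 ± 0.327 CPM (-3.90 ± 0.36, adjusted p = 0.000144), Sox3 also fell (-3.27 ± 0.57, adjusted p = 0.00261), and Dnmt3b, the most abundant in CPM, fell from 437 ± 131 to 125 ± 24 CPM (-1.80 ± 0.22, adjusted p = 0.000486). The part of this shift in the level of Lef1 and Axin2 was not tested.

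Of 7 endoderm markers, 6 passed the filter and 4 rose (Foxa2, Gata4, Sox17 and Gata6), beside 18% of all genes called higher. Foxa2 (1.44 ± 0.25, adjusted p = 0.00273) and Gata4 (1.01 ± 0.22, adjusted p = 0.00788) changed most. The summed level was 42.5 to 97.4 CPM in control and 83.1 to 140 CPM in PhenDC3 samples. The call of Gata6 was lost without any 1 PhenDC3 sample (adjusted p of 0.0513 to 0.122). Dab2, the most abundant of them in CPM, was not called (0.21 ± 0.37, adjusted p = 0.695). Of 6 trophoblast markers, 5 passed the filter and Krt18 and Tfap2c rose, beside the same 18% of all genes. With so few genes, the endoderm and trophoblast counts allow no statement on either list. Cdx2 (-0.07 ± 0.49, adjusted p = 0.929), Eomes (-0.47 ± 0.20, adjusted p = 0.0908) and Hand1 (0.60 ± 0.39, adjusted p = 0.249) were not called, Elf5 was below the filter, and the summed level was 58.4 to 81.0 CPM against 122 to 167 CPM. Primitive streak and mesoderm markers stayed low, at 8.13 to 8.98 CPM in sum in control and 5.92 to 8.24 CPM in PhenDC3 samples, with Gsc the only one of 6 tested genes called (higher, adjusted p = 0.00642). Gsc had 10 counts over the control samples and 90 over the PhenDC3 samples, and passed the filter through the latter. Of 6 neural markers, 2 passed the filter. Pax6 fell (-1.88 ± 0.35, adjusted p = 0.00348), and Sox1 stood at 2.37 ± 0.66 and 3.67 ± 0.28 CPM and was not called (0.63 ± 0.25, adjusted p = 0.0747), though it was called without control 2 (0.0403). Of 8 fibroblast markers, Thy1 fell (-1.31 ± 0.22, adjusted p = 0.00228), Pdgfra rose (0.90 ± 0.26, adjusted p = 0.0237) and the defining genes Lum and Dcn had no count in any sample. The call of Pdgfra was lost without control 2 (adjusted p = 0.0548) or PhenDC3 1 (0.0801). The part of these other markers in the rise of Apcdd1 was not tested.

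SNS-seq peaks mark the sites at which replication starts, and the lists give each peak a fold enrichment over an RNase-treated library of the same condition. A promoter was taken as 2000 bp on either side of a RefSeq TSS. A peak touched a promoter of 10, 10 and 6 of the 10 members in control 1, 2 and 3, and of 8 and 7 in PhenDC3 1 and 2. Among 13873 expressed genes the shares were 67.1%, 64.5% and 39.2% in control and 64.3% and 46.0% in PhenDC3 lists, and the lists differ in size, from 79377 peaks in control 3 to 144103 in PhenDC3 1. With so few lists (3 against 2) no exact permutation test can reach 0.05, so none was made.

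The Lef1 promoter held a peak in all 5 lists, in a region of chr3:131109419-131110060 centred 558 bp upstream of the TSS, which ends within the window printed above. Its fold enrichment was 8.98, 5.64 and 4.39 in control 1, 2 and 3 and 3.76 and 6.81 in PhenDC3 1 and 2. The values of both conditions overlapped. An origin was thus called at Lef1 in both PhenDC3 lists, the condition in which its RNA was lowest. Over the gene and 2000 bp to each side there were 16 regions with a peak in any list, of which 2 were in all 5 lists, none was in at least 2 control lists and no PhenDC3 list, and none was in both PhenDC3 lists and no control list.

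The Apcdd1 promoter held 2 regions with a peak, chr18:62921869-62922193 and chr18:62922669-62923221. Both were called in control 1 and 2, with a fold enrichment of up to 6.69 in control 1 and 4.58 in control 2. Neither was called in control 3 or in a PhenDC3 list. A region inside the gene, 19074 bp from the TSS, was called in all 5 lists. Peaks at the Apcdd1 promoter were hence absent from both PhenDC3 lists, but also from 1 of 3 control lists.

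At the Tcf7l1 promoter, peaks were called in control 1 and 2 and in PhenDC3 1, with one centred near the printed window in each (summits 301, 379 and 296 bp upstream of the TSS and fold enrichments of 6.64, 7.89 and 5.93). None was called in control 3 or PhenDC3 2. At the Axin2 promoter, peaks were called in all 3 control lists and in PhenDC3 1, but not in PhenDC3 2, and the strongest had a fold enrichment of 12.1, 10.3, 6.18 and 8.91. The summits lay downstream of the TSS in the control lists, from 139 to 1921 bp, while PhenDC3 1 also held summits 1321 and 1164 bp upstream. Sp5, Tcf7l2, Nkd1 and Cdx1 had a promoter peak in all 5 lists, Tcf7 in 4 (not in control 3) and Lgr5 in 3 (control 1, control 2 and PhenDC3 2).

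**Figure D4:**
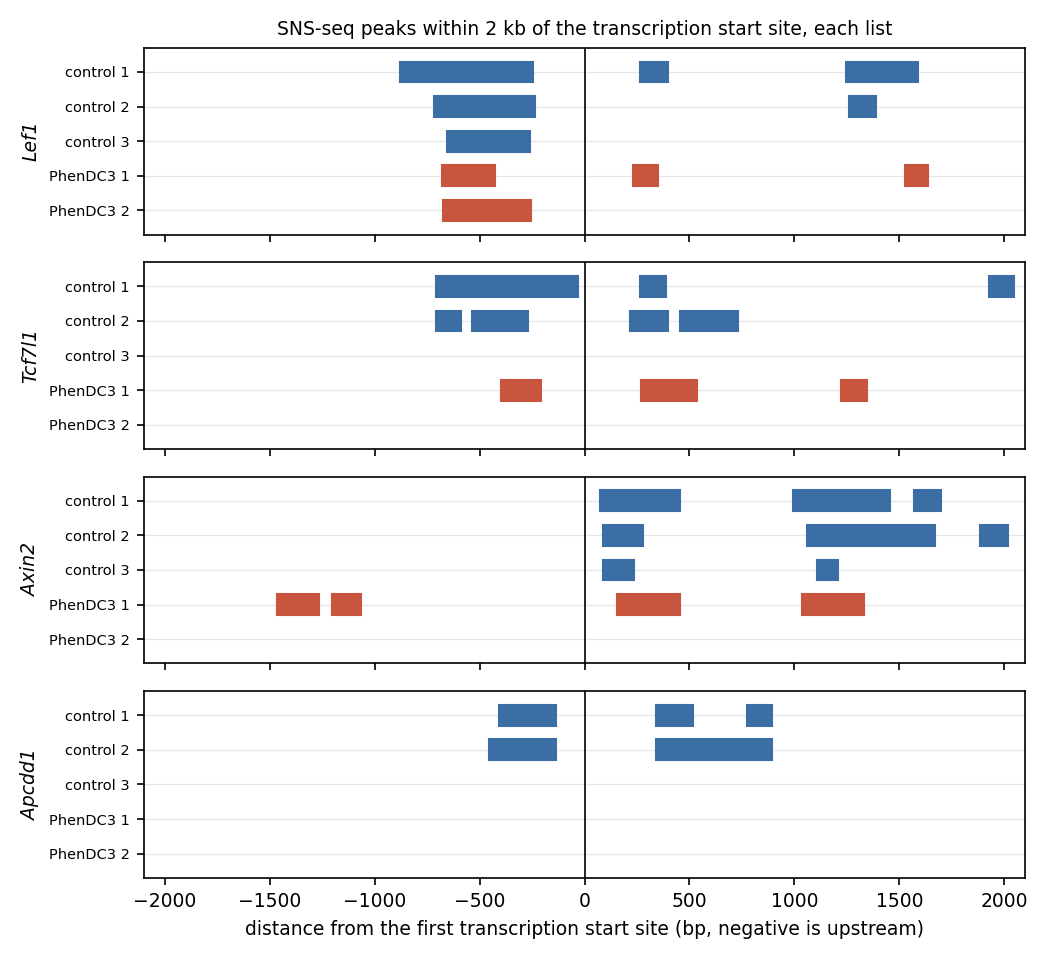
SNS-seq peaks (bars) within 2000 bp of the TSS of Lef1, Tcf7l1, Axin2 and Apcdd1 in 3 control (blue) and 2 PhenDC3 (red) lists, placed by distance from the TSS in bp along the gene. The Lef1 origin upstream of the TSS is present in all 5 lists, and Apcdd1 has peaks in control 1 and 2 only.

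Over all members, 174 regions with a peak in any list lay in the genes and 2000 bp to each side. Of these, 24 were in all 5 lists, 11 were in at least 2 control lists and no PhenDC3 list, and 9 were in both PhenDC3 lists and no control list. The latter came from Tcf7 (3), Tcf7l2 (2), Nkd1 (2), Tcf7l1 (1) and Lgr5 (1), and 96 regions had fewer than 2 replicates of each condition. The share of these classes over all genes was not computed. A region of controls alone had to be absent from 2 lists, and one of PhenDC3 alone from 3. Nothing is therefore read from these counts, or from those at Lef1, about the members or the treatment. The lists carry no read counts, so the depth behind each peak is unknown, and a missing peak does not show that no replication started there.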

How the data were processed

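RNA was measured in 3 control and 3 PhenDC3 samples and short nascent strands in 3 control and 2 PhenDC3 samples. The RNase-treated libraries, 1 per condition, served the authors as background for the peaks and were not analysed here. RNA-seq reads were mapped by the authors using TopHat2 (2.1.1) and Bowtie2, counted per gene with HTSeq (0.6.1p1) and deposited as raw counts. The annotation and strand setting of the counting are not given in the sources used here, so reads of overlapping antisense genes may not be told apart. For SNS-seq the authors called narrow peaks on mm10 with MACS2 (2.1.0) in each replicate, without pooling, and kept those overlapping a SICER region. Each deposited peak carries its ratio to the RNase-treated background (fold enrichment), with its p-value and q-value on the −log10 scale. Versions follow the submitters' processing notes. A deposited table with the authors' own fold changes and p-values and a table of normalized pseudo-counts were not used.

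The counts were tested with edgeR 4.0.16 in R 4.3.3 (relative log expression factors, filterByExpr, robust quasi-likelihood test without replicate block, Benjamini-Hochberg adjustment over 13972 genes, threshold 0.05), and the script was tested on simulated data. Fold changes are those of PhenDC3 over control. Alternatives were TMM, no filter, DESeq2 1.42.0 (the tool of the study), a replicate block, each sample left out, other gene lengths for the shares, and for peaks the upstream 2000 bp, the peaks above the median −log10 p of their list, or the peak centre. Libraries of 22232014 to 29486502 counts leave genes under about 10 counts imprecise. Gene positions, exon lengths and TSS come from the RefSeq annotation of GRCm38.p6, which may differ from that used for counting, and promoter sequences are RefSeq's. The members and lists were chosen with earlier results of these data known. All 10 members were named, and in each pathway list up to 4 called genes (2 in marker lists) with a mean of at least 1 CPM and the largest change, the most abundant gene, and Ctnnb1, Apc, Axin1 and Gsk3b. Some genes stand in more than 1 list (Nanog, for example). One gene counted in a pathway list is not reported here by name.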

Additional observations from a re-analysis of the deposited data

How the results depend on the processing

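The log2 fold changes of the 7 members tested did not change sign or call under TMM, no filter, DESeq2, the replicate block or with 1 sample left out. For Lef1 and Apcdd1, which were chosen for their change in these samples, this is no sign of stability. With 1 sample left out, Lef1 lay between -6.23 and -5.68, Axin2 between -1.65 and -1.21 and Apcdd1 between 2.16 and 2.21. Without the filter Sp5 was also called lower (-2.63 ± 0.61), as it was with DESeq2 (-2.70 ± 0.86). Leaving out 1 sample gave 3 members called higher and 2 to 3 lower, the added one being Sp5 (without control 1 or any PhenDC3 sample). Over all genes, leaving out 1 sample gave 1709 to 2689 genes called higher and 1623 to 2727 lower, the lowest count of 1623 without PhenDC3 1. The lists moved within 3 to 4 (higher) and 1 to 2 (lower) for ligands, 1 to 3 and 4 to 5 for receptors, 2 to 3 and 1 to 2 for inhibitors, and 3 to 7 and 1 to 2 for the cytoplasmic list. The receptors had 1 gene higher without control 1 or PhenDC3 3, the inhibitors 1 lower without control 1 or PhenDC3 2, and ligands 2 lower without PhenDC3 3. The cytoplasmic list had 3 higher without control 1, control 2, PhenDC3 1 or PhenDC3 3, and 1 lower without control 2, PhenDC3 1 or PhenDC3 3. With 1 sample left out, 6 genes that were not called changed sign. Axin1 ranged from -0.235 (without control 2) to 0.0089 (without control 3), Fzd5 from -0.0129 (without PhenDC3 3) to 0.1517 (without PhenDC3 2), and Dab2 from -0.2152 (without PhenDC3 1) and -0.1118 (without control 3) to 0.5229 (without control 1). The other 3 were Otx2 (-0.0705 to 0.1034), Foxd3 (-0.0132 to 0.2258) and Cdx2 (-0.3774 to 0.1666). Coding length gave shares of 19.5% (control) and 0.281% (PhenDC3) for Lef1, 39.9% and 65.6% for Tcf7l1, 3.31% and 5.40% for Tcf7l2 and 28.7% in PhenDC3 samples for Tcf7. The longest transcript gave 68.0% for Tcf7l1 in PhenDC3 samples. The counts of members with a promoter peak stayed within 1.5 times of those reported under all alternatives run. The causes were not tested. Depth limits Sp5, Lgr5 and Cdx1, with at most 18 counts in a sample.

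Samples with the same replicate number deviated together with a correlation of 0.09, 0.54 and 0.41 for numbers 1, 2 and 3 across 13972 genes. The first was weak and the labels state no pairing, so the main fit did not pair the samples. Every sample nevertheless correlated best with its own number. The deposited column names also number the control and PhenDC3 sample of each replicate consecutively, so a pairing is possible. A fit with the replicate number as a block called 7489 genes in place of 5135, of which 5125 were shared, with 3797 higher. It gave 2 ligands lower, 4 receptors higher, 5 inhibitors higher, 9 cytoplasmic genes higher and 4 lower, 5 nuclear cofactors higher and 6 lower, and 4 pluripotency genes higher. The block called Apc (adjusted p = 0.00481), Eomes (-0.48, adjusted p = 0.0462), Zic2 (0.0218), Hand1 (0.0429) and Sox1 (0.018), left Otx2 uncalled at 0.0034, and changed no call of a member.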
